A study of Mus musculus with 8 samples.

Results

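The transcripts of 30 genes of cholesterol and fatty acid synthesis were followed in tumor-associated macrophages (TAMs) lacking the microRNA miR-21. The genes were listed by symbol, and all 30 were found among the 53247 genes of the expression table and among the 13850 genes abundant enough to be tested. They comprised 7 genes of the mevalonate steps, 11 genes of squalene and sterol formation, 5 genes of the SREBP (sterol regulatory element-binding protein) machinery, 6 genes of fatty acid synthesis and desaturation, and the sterol carrier gene Stard4.

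RNA-Seq was performed on 4 samples from WT mice and 4 samples from miR-21-/- mice, all on the C57/BL6 background. Every mouse carried s.c. tumors of LLC cells (Lewis lung carcinoma, a mouse lung tumor line), which were implanted at 8 weeks of age and collected 14 days later, when the mice were 10 weeks old. TAMs were sorted from collagenase-digested tumors by CD45, CD11b, MHC II and F4/80. The deletion was present in all host cells and not in macrophages alone, whereas the implanted LLC cells were the same in both groups, and miR-21-/- replicate 1 carries a double sample number, may thus be a pool, and was counted as 1 sample.

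Cells make cholesterol from acetyl-CoA through mevalonate, the isoprenoid farnesyl diphosphate, squalene and lanosterol, and they make fatty acids from the same acetyl-CoA through malonyl-CoA. Both pathways are under the control of the SREBP transcription factors, which are made as precursors in the ER membrane. When sterols are scarce, the escort protein Scap carries the precursor to the Golgi for cleavage, and when sterols are plentiful, Insig proteins hold Scap in the ER. Macrophages take up much lipid from dying cells and lipoproteins, and their own synthesis is turned down when they are loaded with sterol.

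The samples were 20.2 to 33.4 (in units of 1e+06 reads) deep, as estimated from the spacing of low values, and values are given as CPM (counts per 1e+06 reads). The lowest value of any of the 30 genes, 2.90 CPM of Acat2 in miR-21-/- replicate 3, stood for about 75 reads. The macrophage and gate markers Ptprc, Itgam, Adgre1, H2-Ab1, Csf1r, Cd68, Mertk and Fcgr1 together had 7393 to 8390 CPM in WT TAMs, as against 6584 to 7947 CPM in miR-21-/- TAMs. Within this sum, Adgre1 (564 to 433 CPM) and Csf1r (1311 to 939 CPM) fell and Fcgr1 (273 to 458 CPM) rose, with limma adjusted p-values of 0.00140, 0.00538 and 0.000561, and the other 5 did not pass. Mir21a itself was listed at the minimum of the table in all 8 samples (the libraries were made from mRNA), so the deleted gene gave no check of the genotypes. Vmp1, the gene on the same strand that overlaps Mir21a, had 115 to 133 CPM in the WT samples and 373 to 426 CPM in the miR-21-/- samples, so the groups were apart at this locus (log2 fold change 1.67, limma adjusted p = 7.1e-07). Over all tested genes, the median log2 fold change (miR-21-/- over WT) was -0.10, and every value below is to be read against that shift.

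The promoters of the 3 genes that passed the threshold of the study (adjusted p of at most 0.005 and a fold change over 1.5), and that of Fasn, are shown because SREBPs act on these genes through their proximal promoters. Each is the RefSeq window on GRCm38.p6 from 250 bases before to 50 bases after the annotated start. It is read 5′ to 3′ in the direction of the gene. Matches to TCACNCCAC, the form of the SREBP element used here, and CCAAT boxes, in either orientation, are in capitals. Other forms of the element were not marked.
Acat2, chr17:12960676-12960975, minus strand: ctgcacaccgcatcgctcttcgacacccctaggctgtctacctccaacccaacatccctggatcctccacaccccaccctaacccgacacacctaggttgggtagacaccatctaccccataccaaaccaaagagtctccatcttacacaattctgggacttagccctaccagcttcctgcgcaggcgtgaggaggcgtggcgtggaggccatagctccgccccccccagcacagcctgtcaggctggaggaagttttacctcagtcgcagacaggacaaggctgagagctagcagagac
Hmgcs1, chr13:119690101-119690400, plus strand: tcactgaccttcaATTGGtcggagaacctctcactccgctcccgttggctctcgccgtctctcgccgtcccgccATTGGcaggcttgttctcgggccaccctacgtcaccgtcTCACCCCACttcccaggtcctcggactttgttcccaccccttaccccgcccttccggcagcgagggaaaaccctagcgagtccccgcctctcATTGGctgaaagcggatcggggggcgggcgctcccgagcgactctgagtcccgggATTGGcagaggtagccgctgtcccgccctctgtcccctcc
Cyp51, chr5:4104648-4104947, minus strand: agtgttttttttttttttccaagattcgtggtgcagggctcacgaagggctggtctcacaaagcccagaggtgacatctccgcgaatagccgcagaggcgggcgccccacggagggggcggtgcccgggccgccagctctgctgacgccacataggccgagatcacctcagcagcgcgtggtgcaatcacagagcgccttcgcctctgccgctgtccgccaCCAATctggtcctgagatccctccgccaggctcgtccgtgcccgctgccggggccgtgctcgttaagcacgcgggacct
Fasn, chr11:120824498-120824797, minus strand: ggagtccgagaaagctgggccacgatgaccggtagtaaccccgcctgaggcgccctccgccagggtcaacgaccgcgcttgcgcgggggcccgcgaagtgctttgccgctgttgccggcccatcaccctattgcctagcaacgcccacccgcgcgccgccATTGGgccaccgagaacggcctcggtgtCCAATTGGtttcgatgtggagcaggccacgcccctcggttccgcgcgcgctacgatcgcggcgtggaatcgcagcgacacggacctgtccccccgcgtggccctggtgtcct
Among these 4 windows only that of Hmgcs1 held the letters TCACNCCAC, as TCACCCCAC, while CCAAT boxes occurred in the windows of Hmgcs1, Cyp51 and Fasn.

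Windows were found for 24 of the 30 genes. CCAAT, the box bound by NF-Y, was present in 20 of them (83.3%), as against 43.2% of the tested genes with a window and 37.4% of all 32851 windows. GGGCGG, the box bound by Sp1, was also present in 20 (83.3%), as against 67.8% and 35.7%. The E-box CACGTG was present in 5 (20.8%), as against 11.9% and 7.15%, and TCACNCCAC in 1 (4.17%), as against 1.41% and 1.24%. The wider TCACNNCAC was present in 4 (16.7%), as against 4.57% and 3.77%. All motifs were searched on both strands, and of the 4 named before the wider form none contains another. NF-Y and Sp1 are general promoter factors that act beside SREBPs at sterol-regulated promoters. The matches describe the sequences and do not show binding in these cells.

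The deleted microRNA is shown for comparison of its seed with the transcripts. The RefSeq mature miR-21a-5p, encoded at chr11:86584120-86584141 on the minus strand, is given with the seed (bases 2 to 8) in capitals.
miR-21a-5p: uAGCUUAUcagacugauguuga
Sites complementary to the seed were looked for in all 30 genes. The longest annotated 3′ UTR was searched, which was available for all 30 genes and for 11443 of the tested genes. A site of 7 or 8 bases was held by 2 of the 30 genes (6.67%), as against 12.4% of those 11443. An 8-base site was held by 1 of the 30 (3.33%), as against 2.24%. The sites are given below with the matched bases in capitals and their position from the first base of the 3′ UTR.
Sc5d, position 264: cgatagaaaATAAGCTActcaagaag
Sc5d, position 1099: tggttgttgTAAGCTAagtatattt
Elovl6, position 2494: taaaacgacTAAGCTAtgcttccaa
Sc5d, the sterol desaturase gene with both an 8-base and a 7-base site, had 17.4 ± 0.939 CPM in WT TAMs, as against 16.4 ± 1.19 CPM in null TAMs (mean ± SD, n = 4 each). Its log2 fold change of -0.08 ± 0.072 (SE) had a limma adjusted p of 0.388, with a 95% interval from -0.25 to 0.08. Elovl6, with 1 site, was among the genes that fell, as given below.

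Most genes of both pathways were lower in miR-21-/- TAMs, by moderate amounts. The log2 fold change was below 0 for 29 of 30 genes, as against 66.8% of all tested genes, although for 5 of them (Ebp, Sc5d, Srebf1, Insig2 and Acaca) it was above 0 after rescaling by the median of ratios. The 30 values ran from -0.81 (Cyp51) to 0.29 (Scd2), with a median of -0.34, and 24 of them lay below the median of all tested genes.

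At an adjusted p of at most 0.05 with no limit on the fold, for which "fell" and "rose" are used below, 17 of the 30 genes fell (56.7%) and 1 rose in limma's fit over all tested genes. The same rule called 26.5% of all tested genes lower and 9.49% higher, so a large part of the transcriptome was called in the same direction. Of the 18 calls, 12 held in each of the 18 fits, with different settings or a sample left out, namely Acat2, Hmgcs1, Mvd, Idi1, Fdps, Sqle, Cyp51, Dhcr7, Srebf2, Fasn, Elovl6 and Stard4, with adjusted p-values from limma of at most 0.0338. The other 6, Fdft1, Lss, Hsd17b7, Acly, Scd1 and Scd2, were lost in at least 1 fit. With the median of ratios, 13 of the 30 genes (43.3%) and 14.7% of all tested genes were lower. At the threshold of the study, 3 genes (10.0%) were lower, namely Cyp51, Acat2 and Hmgcs1, and 0 were higher, with 1 gene higher at an unadjusted p under 0.05. Of all tested genes, 4.23% were lower and 2.89% higher at that threshold (586 and 400 genes), a split that turned to 350 lower and 520 higher with the median of ratios to 337 and 491 with quantile normalization, to 201 and 251 with a pseudocount of 10, and to 248 and 274 without a filter. Every miR-21-/- value was below every WT value for 14 of the 30 genes (46.7%), as against 25.7% of all tested genes.

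**Figure D1:**
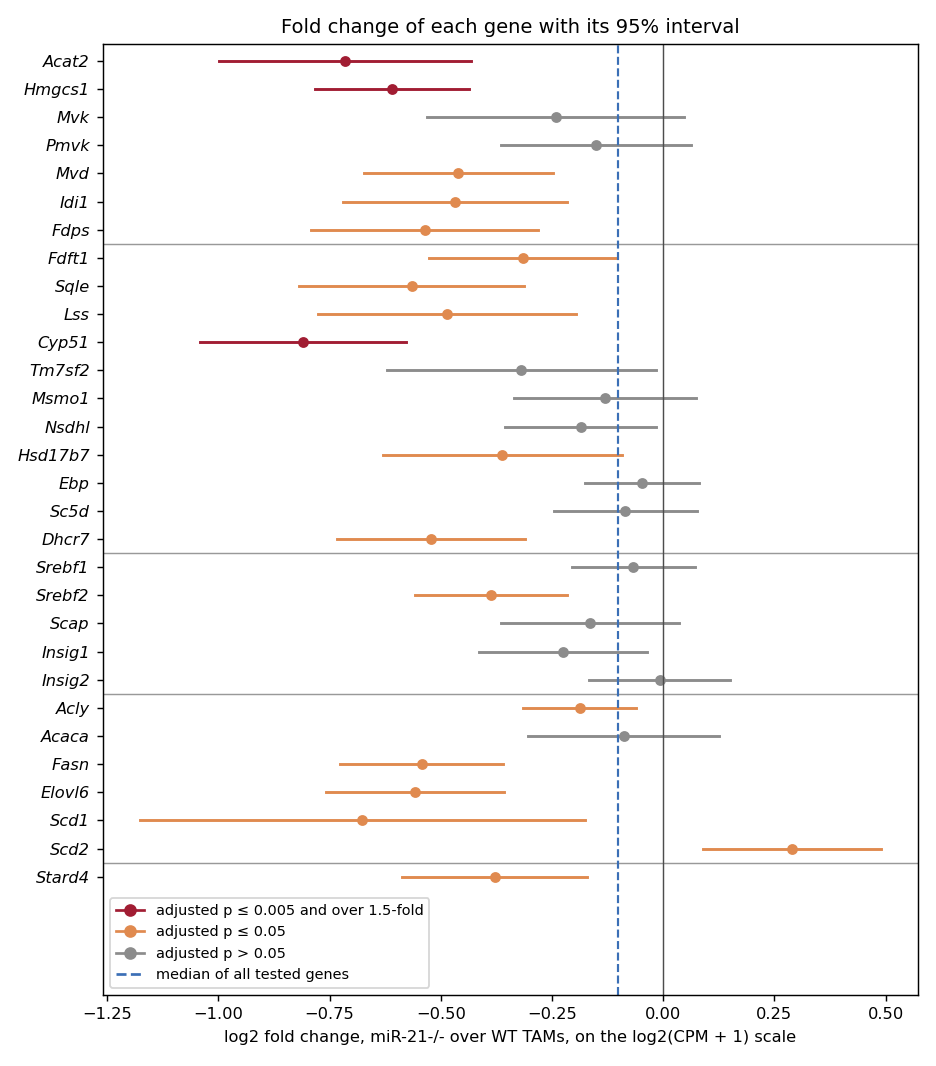
Log2 fold change of each gene (miR-21-/- over WT TAMs, x axis, log2(CPM + 1) scale) with its 95% interval from limma, 4 samples per genotype, ordered by role and colored by call. The 3 genes Cyp51, Acat2 and Hmgcs1 are past the threshold of the study, and 24 of 30 points lie left of the dashed median of all tested genes at -0.10.

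**Figure D2:**
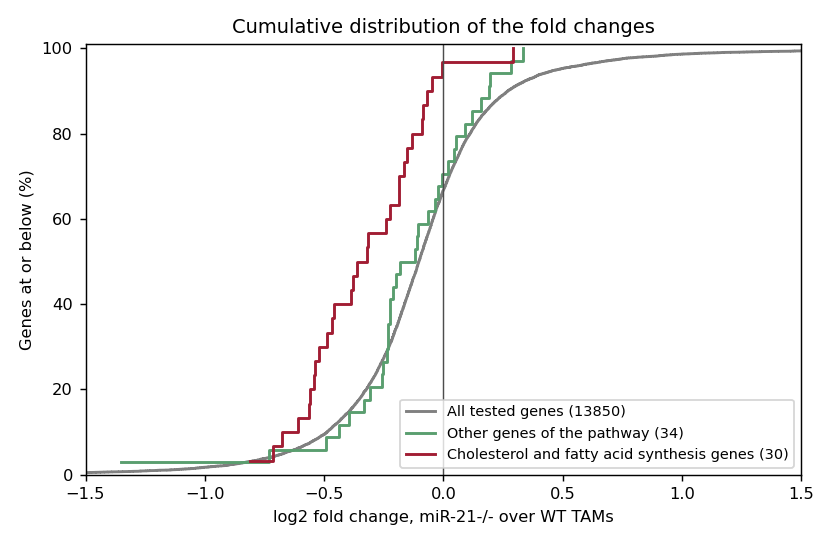
Cumulative share (y axis, percent of genes at or below) of the log2 fold changes (x axis). Curves are drawn for the 30 genes, for 34 other genes of the pathways and for the 13850 tested genes. The medians are -0.34, -0.15 and -0.10. Of the 30 genes only Scd2 lies above 0 before rescaling, with 6 of the 30 above 0 after rescaling by the median of ratios.

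The mean of log2(CPM + 1) over the 30 genes, used as a score per sample, was 4.475, 4.622, 4.691 and 4.550 in the WT samples and 4.245, 4.335, 4.1999 and 4.224 in the miR-21-/- samples. All 4 miR-21-/- scores were below all 4 WT scores, and the difference of the means was -0.33, or -0.23 relative to the median of all tested genes. By the same measure all tested genes together differed by -0.10. The difference was -0.45 for the mevalonate steps, -0.35 for the sterol steps, -0.29 for the fatty acid genes and -0.17 for the SREBP machinery, and only in the last of these groups did the genotypes overlap. Since the RNA came from bulk sorted cells, fewer cells expressing a gene and less RNA per cell cannot be told apart.

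**Figure D3:**
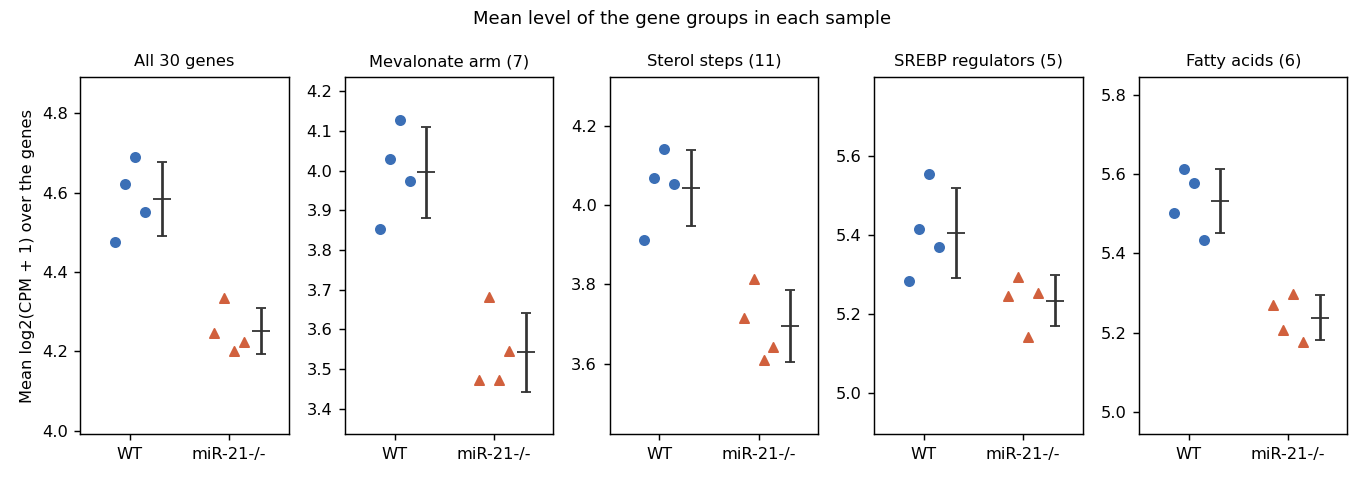
Mean log2(CPM + 1) over the genes of each group (y axis) in each of 4 WT and 4 miR-21-/- TAM samples, with the mean and SD as a bar beside the points. All groups of the pathway were lower in miR-21-/- TAMs, with overlap between genotypes only for the SREBP machinery.

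Of the 7 mevalonate genes, 5 fell and 2 did not pass, with a median log2 fold change of -0.47. Acat2 (chr17:12942890-12960747), which joins acetyl-CoA units at the start of the pathway, had 5.58, 6.23, 7.64 and 6.48 CPM in WT TAMs, as against 3.61, 4.53, 2.90 and 3.27 CPM in miR-21-/- TAMs. Every miR-21-/- sample was below every WT sample. The means of 6.48 ± 0.863 and 3.58 ± 0.697 CPM (SD, n = 4 each) differed by -0.71 ± 0.13 (log2 fold change, SE), with a limma adjusted p of 0.00222. Acat2 has a close paralog, Acat3, and reads may have been shared between them. Acat2 was past the threshold in 8 of 18 fits. The call was lost when any of WT replicates 2, 3 and 4 or miR-21-/- replicates 1, 3 and 4 was left out, with adjusted p-values from limma up to 0.00752, and also with quantile normalization (-0.55), without a filter (limma adjusted p = 0.0115), with a pseudocount of 10 (-0.28) and with a replicate block.

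Hmgcs1 (chr13:119690379-119708260), the cytosolic synthase that makes the HMG-CoA used for mevalonate, had 50.8, 50.7, 63.4 and 52.6 CPM in WT TAMs, as against 34.7, 37.9, 33.7 and 34.3 CPM in miR-21-/- TAMs. The miR-21-/- samples lay close together and well below all WT samples, of which replicate 3 was the highest. The means were 54.4 ± 6.08 and 35.2 ± 1.87 CPM, with a log2 fold change of -0.61 ± 0.078 and a limma adjusted p of 0.000396. Without WT replicate 3 the change was -0.54, under the fold limit, at an adjusted p of 0.000498 from limma, and it was -0.50 with the median of ratios and -0.54 with quantile normalization.

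Fdps, which makes farnesyl diphosphate, had the lowest log2 fold change of the other mevalonate genes. It had 18.1, 18.6, 20.7 and 19.3 CPM in WT TAMs, as against 12.8, 16.1, 10.3 and 13.0 CPM in miR-21-/- TAMs, with no overlap. Its log2 fold change was -0.54 ± 0.11, with a limma adjusted p of 0.00547. Idi1, the isopentenyl diphosphate isomerase, fell from 19.6 ± 1.33 to 14.0 ± 2.57 CPM (limma adjusted p = 0.00994). Mvd, the decarboxylase that forms isopentenyl diphosphate, fell from 11.8 ± 1.39 to 8.30 ± 0.659 CPM (limma adjusted p = 0.00480), but it lies wholly within a gene on the opposite strand, Gm20388, and whether the counting used strand is not given in the sources used here.

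The kinases between them did not pass. Mvk, mevalonate kinase, had 5.89 ± 1.08 CPM in WT TAMs, as against 4.79 ± 0.547 CPM in miR-21-/- TAMs (limma adjusted p = 0.171). Without WT replicate 1, Mvk did pass, with a log2 fold change of -0.36 and a limma adjusted p of 0.0286. Pmvk, phosphomevalonate kinase, had the highest fold change of the group, with 15.1, 19.9, 16.7 and 15.7 CPM in WT TAMs, as against 13.4, 14.7, 15.7 and 16.3 CPM in miR-21-/- TAMs. The Pmvk groups overlapped, with a log2 fold change of -0.15 (95% interval -0.37 to 0.06) and a limma adjusted p of 0.244. Without WT replicate 2 the Pmvk change was -0.07 (limma adjusted p = 0.567).

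Of the 11 genes from squalene to cholesterol, 6 fell and 5 did not pass, with a median log2 fold change of -0.32. Cyp51 (chr5:4081145-4104746), the lanosterol demethylase, had the lowest log2 fold change of the 30 genes on the log2(CPM + 1) scale, while in CPM Acat2 kept slightly less of its WT mean (55.15%). It had 25.7, 27.1, 30.7 and 28.7 CPM in WT TAMs, as against 16.4, 18.6, 12.9 and 14.7 CPM in miR-21-/- TAMs. The highest miR-21-/- value was well below the lowest WT value. The mean in miR-21-/- TAMs, 15.7 ± 2.41 CPM, was 55.9% of the WT mean of 28.0 ± 2.15 CPM, with a log2 fold change of -0.81 ± 0.10 and a limma adjusted p of 0.000408. Cyp51 stayed past the threshold in 17 of 18 fits, failing it with a pseudocount of 10, and it overlaps Akap9 on the opposite strand by 166 bases.

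Sqle, the squalene epoxidase and a rate-limiting enzyme of the sterol steps, had 16.4, 20.4, 20.4 and 18.9 CPM in WT TAMs, as against 13.7, 14.8, 11.6 and 10.4 CPM in miR-21-/- TAMs. The genotypes did not overlap, and the log2 fold change of -0.57 ± 0.11 was just short of the fold limit, with a limma adjusted p of 0.00408. Dhcr7, a sterol reductase at the end of the pathway, fell from 19.9 ± 2.29 to 13.6 ± 1.27 CPM (-0.52 ± 0.095, limma adjusted p = 0.00245). Lss, the cyclase that makes lanosterol, fell from 12.2 ± 1.83 to 8.43 ± 1.51 CPM (limma adjusted p = 0.0163), although miR-21-/- replicate 2, at 10.46 CPM, was above WT replicate 1, at 10.33 CPM.

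Among the sterol genes the smallest falls that passed were those of Fdft1 and Hsd17b7. Fdft1, squalene synthase, went from 13.4 ± 1.54 to 10.6 ± 0.892 CPM (limma adjusted p = 0.0256) and overlaps the far more abundant Ctsb by 774 bases on the opposite strand. Hsd17b7, a sterol ketoreductase, went from 6.38 ± 1.01 to 4.73 ± 0.624 CPM (limma adjusted p = 0.0400). With the median of ratios their limma adjusted p-values were 0.126 and 0.0995. Its partners in removing methyl groups from the ring did not pass. Msmo1, the oxidase, had 28.1 ± 2.77 CPM in WT TAMs and 25.6 ± 2.78 CPM without miR-21 (limma adjusted p = 0.293). Nsdhl, the dehydrogenase, had 14.2 ± 0.443 and 12.4 ± 1.11 CPM (limma adjusted p = 0.0803). Without miR-21-/- replicate 1, Nsdhl did pass, with a log2 fold change of -0.23 and a limma adjusted p of 0.0391.

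Ebp, the sterol isomerase, had the value nearest to 0 of the sterol steps with all samples and before rescaling. It had 30.3, 28.6, 32.0 and 28.1 CPM in WT TAMs, as against 29.3, 29.0, 28.2 and 28.4 CPM in miR-21-/- TAMs. All miR-21-/- values lay within the WT range, and the 95% interval of the log2 fold change of -0.05 ran from -0.18 to 0.08 (limma adjusted p = 0.546). Tm7sf2, a sterol reductase that shares 532 bases on the same strand with Vps51, had 4.995 ± 1.01 CPM in WT TAMs, as against 3.76 ± 0.432 CPM in miR-21-/- TAMs (log2 fold change -0.32, limma adjusted p = 0.0916). Without WT replicate 1, Tm7sf2 did pass, with a log2 fold change of -0.45 and a limma adjusted p of 0.0110.

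The transcription factor genes differed from each other in their values. Srebf2, which encodes the SREBP best known for driving cholesterol synthesis, had 88.0, 99.7, 106.3 and 100.5 CPM in WT TAMs, as against 78.0, 81.6, 66.6 and 74.7 CPM in miR-21-/- TAMs. The genotypes did not overlap, and the log2 fold change was -0.39 ± 0.077, with a limma adjusted p of 0.00384. Srebf1, whose product is best known for fatty acid synthesis, had 56.8 ± 3.84 and 54.1 ± 2.47 CPM, with a log2 fold change of -0.07 (95% interval -0.20 to 0.07) and a limma adjusted p of 0.425. It overlaps Rai1 on the opposite strand by 109 bases. The difference between the changes of Srebf2 and Srebf1 was not tested.

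The proteins that move or hold the SREBP precursors did not pass. With all samples and before rescaling, Insig2 had the value nearest to 0 of all 30 genes. It had 16.9, 18.1, 20.2 and 18.1 CPM in WT TAMs, as against 18.9, 18.9, 17.2 and 17.6 CPM in miR-21-/- TAMs. Here too, no value of the null mice lay outside the WT range, with a 95% interval of the log2 fold change from -0.17 to 0.15. Insig1, itself a sterol-regulated SREBP target, had 34.3 ± 3.89 and 29.1 ± 2.19 CPM, with a log2 fold change of -0.23 ± 0.085 and a limma adjusted p of 0.0627. Scap, the escort protein, had 34.4 ± 3.95 and 30.5 ± 2.54 CPM (limma adjusted p = 0.180).

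**Figure D4:**
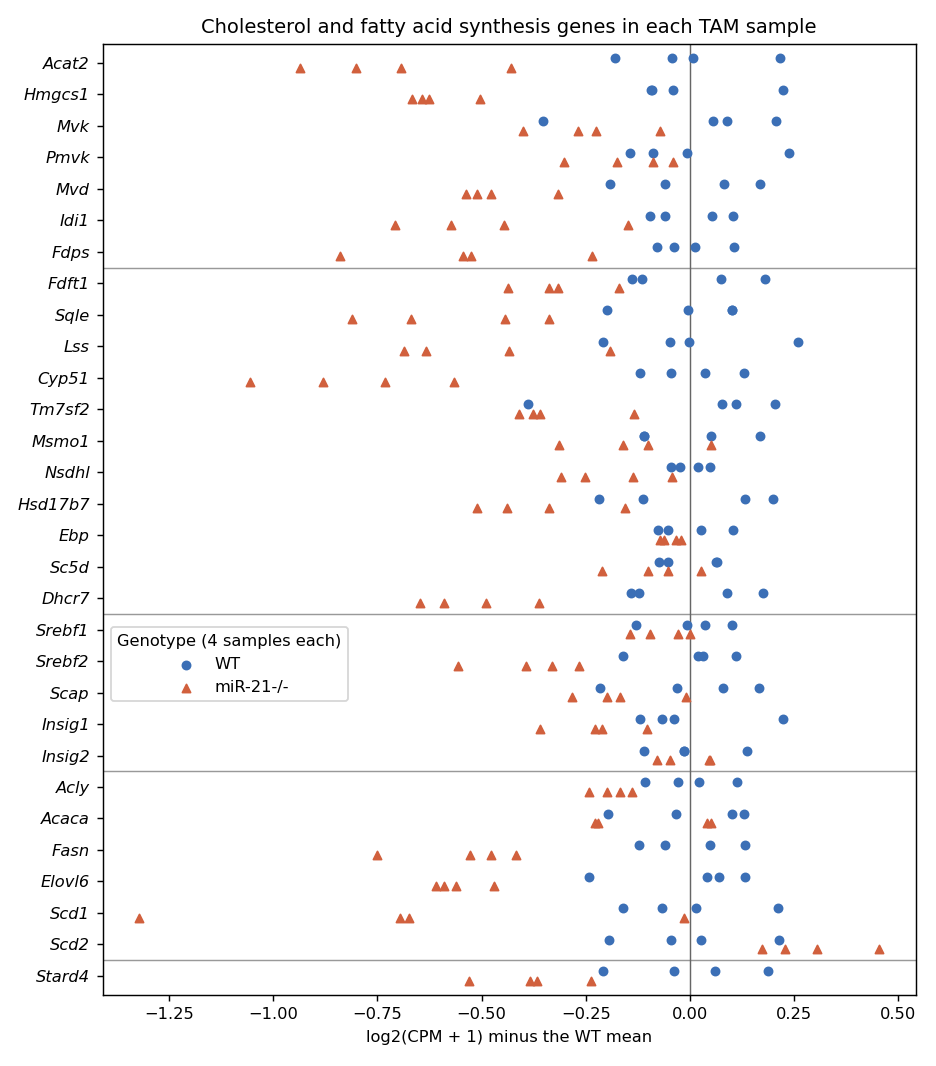
Value of each of the 30 genes in each sample, as log2(CPM + 1) minus the WT mean (x axis), with 4 WT samples as circles and 4 miR-21-/- samples as triangles, and grey lines between the groups by role. The triangles lie left of all circles for 14 genes, and all 4 triangles of Scd2 lie right of its WT mean.

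Of the 6 fatty acid genes, 4 fell, 1 rose and 1 did not pass. Fasn (chr11:120805846-120824547), the fatty acid synthase, had 65.4, 78.3, 73.8 and 68.4 CPM in WT TAMs, as against 41.9, 50.9, 49.2 and 53.2 CPM in miR-21-/- TAMs. The genotypes were well apart, and the log2 fold change of -0.54 ± 0.083 had a limma adjusted p of 0.000993, below the p limit of the threshold but short of its fold limit. Elovl6, which lengthens the palmitate that Fasn makes, fell from 16.4 ± 1.90 to 10.8 ± 0.510 CPM (-0.56 ± 0.090, limma adjusted p = 0.00129), with all miR-21-/- samples lower. Acly, which supplies cytosolic acetyl-CoA from citrate, fell by less, from 185 ± 11.9 to 162 ± 5.03 CPM (-0.19 ± 0.057, limma adjusted p = 0.0277), and had a log2 fold change of -0.076 and a limma adjusted p of 0.270 with the median of ratios. Acaca, the carboxylase that makes malonyl-CoA, had 25.9 ± 2.72 and 24.3 ± 2.72 CPM and did not pass (limma adjusted p = 0.4998).

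The desaturases Scd1 and Scd2, which lie near each other on chromosome 19 and encode enzymes that introduce the double bond of oleate, went in opposite directions. Scd2 had 159, 151, 181 and 137 CPM in WT TAMs, as against 183, 176, 214 and 193 CPM in miR-21-/- TAMs. It was the only gene of the 30 that rose, with a log2 fold change of 0.29 ± 0.090 and a limma adjusted p of 0.0308, although WT replicate 3 was above miR-21-/- replicate 2. Its limma adjusted p ranged up to 0.0863 over the alternatives, and was 0.0829 without miR-21-/- replicate 3. Scd1 had 7.93, 10.6, 9.08 and 8.52 CPM in WT TAMs, as against 8.88, 5.25, 5.16 and 2.99 CPM in miR-21-/- TAMs.

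The Scd1 values of 3 miR-21-/- samples were below all WT values, while replicate 1 lay among the WT samples. The log2 fold change was -0.68 ± 0.23, with a limma adjusted p of 0.0396, and leaving out a sample moved it between -0.90 (without miR-21-/- replicate 1, limma adjusted p = 0.00474) and -0.46 (without miR-21-/- replicate 4). With any of the other 7 samples left out, the Scd1 change had a limma adjusted p of 0.0527 to 0.101. Within a sample, log2(CPM + 1) of Scd2 minus that of Scd1 was 3.98 ± 0.228 in WT and 4.95 ± 0.580 in miR-21-/- TAMs. This quantity, chosen after the values were seen and given as a description, differed by 0.97 and ran from 3.72 to 4.18 in WT and from 4.22 to 5.61 in miR-21-/- TAMs. Reads of these similar genes may have been split between them.

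Stard4, which carries cholesterol between membranes and is itself an SREBP target, had 27.4, 29.4, 32.2 and 24.2 CPM in WT TAMs, as against 19.2, 23.7, 21.3 and 21.6 CPM in miR-21-/- TAMs. The genotypes did not overlap, by a narrow margin, and the log2 fold change was -0.38 ± 0.093, with a limma adjusted p of 0.0109.

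**Figure D5:**
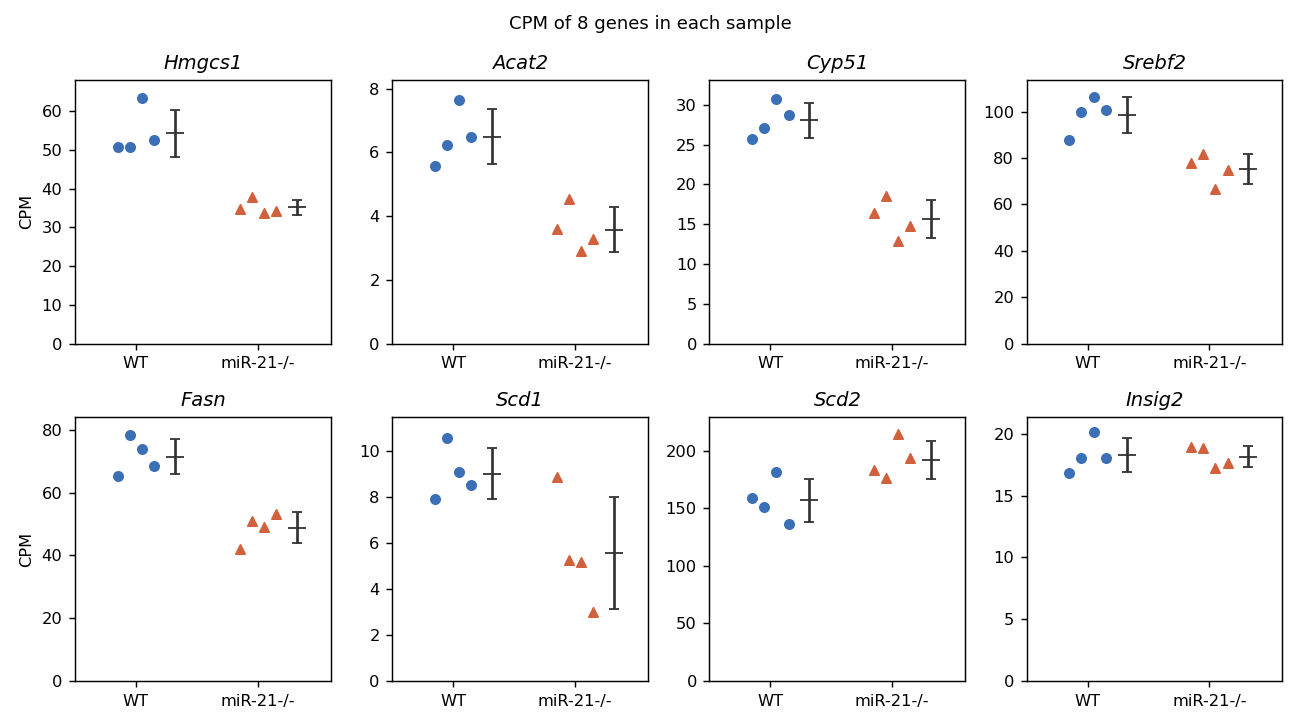
CPM (y axis, from 0) of 8 genes in each of 4 WT and 4 miR-21-/- TAM samples, with the mean and SD as a bar beside the points. Scd2 is higher in miR-21-/- TAMs, at 192 as against 157 CPM, whereas Cyp51 is lower, at 15.7 as against 28.0 CPM.

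The samples were not alike in where they stood within their genotype. WT replicate 3 was the highest WT sample for 19 of the 30 genes and WT replicate 1 the lowest for 16. Among miR-21-/- samples, replicate 2 was the highest for 15 genes and replicate 3 the lowest for 14. The difference of the score was -0.30 without WT replicate 3 and -0.36 without miR-21-/- replicate 2. It therefore kept its direction without either sample.

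Of 39 other genes of the same pathways, 34 could be tested. Of these, 13 fell (38.2%) and 2 rose, with a median log2 fold change of -0.15, between the median of the 30 genes and that of all genes. Lpin1, a phosphatidate phosphatase and reported SREBP target, alone passed the threshold of the study, falling from 27.9 ± 9.49 to 9.90 ± 1.24 CPM (-1.35 ± 0.21, limma adjusted p = 0.00101). Among 10 genes of the LXR receptors and sterol handling, a group that includes targets of the sterol-activated LXRs, 3 fell and 3 rose, or 30% each, as against 26.5% and 9.49% of all tested genes. The genes that rose were the cholesterol exporters Abca1 (0.65, limma adjusted p = 0.0396) and Abcg1 (0.30, limma adjusted p = 0.0493) and the sterol hydroxylase Ch25h (1.47, limma adjusted p = 0.0152), all as log2 fold changes. Apoe (-0.95, limma adjusted p = 0.00844) and Pltp (-0.53, limma adjusted p = 0.00801), which are LXR targets that act on lipoproteins, fell with Cyp27a1. Of these 10 only Cyp27a1, the mitochondrial sterol hydroxylase, passed the threshold, from 37.2 ± 5.50 to 20.7 ± 1.09 CPM (-0.80, limma adjusted p = 0.000328).

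Proliferating cells also use these pathways, and 16 cell proliferation genes were read beside them. In limma 0 of the 16 passed an adjusted p of 0.05 and 1 had an unadjusted p under 0.05. Their summed level was 1000 to 1248 CPM in WT TAMs, as against 782 to 1356 CPM in miR-21-/- TAMs, so the genotypes overlapped.

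Markers of other cells moved with genotype in part. The 6 fibroblast markers together had 66.6 to 141 CPM in WT TAMs, as against 11.4 to 45.8 CPM in miR-21-/- TAMs, and 5 of 6 fell, of which Col1a1 (-2.29), Col3a1 (-2.51), Pdgfra (-1.89) and Pdgfrb (-1.22, all log2 fold changes) passed the threshold of the study. The 6 epithelial markers, counted for the carcinoma cells, summed to 18.8 to 24.8 CPM in WT TAMs, as against 12.7 to 17.9 CPM in miR-21-/- TAMs, with Epcam, Krt19 and Cldn4 under 1 CPM on average and Krt8 lower (limma adjusted p = 0.0291). The 6 neutrophil markers summed to 419 to 786 CPM and 314 to 455 CPM, and 3 of the 5 tested fell (S100a8, S100a9 and Retnlg, with limma adjusted p-values of 0.0488, 0.0292 and 0.0427). The 4 B cell markers summed to 10.8 to 16.8 CPM in WT and 3.60 to 9.995 CPM in miR-21-/- TAMs, with Cd79b past the threshold and lower. The 6 dendritic cell markers summed to 9.26 to 15.4 and 14.0 to 38.2 CPM, and of the 5 tested 1 rose (Clec9a, limma adjusted p = 0.00532) and 4 did not pass, with log2 fold changes below 0 for 3 of the 5. The 8 T and NK cell markers summed to 11.045 to 14.98 and 7.99 to 34.3 CPM, with Cd8a higher (limma adjusted p = 0.00804), and the 4 endothelial markers to 151 to 299.6 and 198 to 286 CPM, with 0 of the 3 tested passing an adjusted p or an unadjusted p of 0.05 in limma. The part of any of these cells in the values of the 30 genes was not tested. All 4 adipocyte markers were under 1 CPM, with sums of at most 0.208 CPM in any sample.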

How the data were processed

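RNA-Seq was performed on 4 samples of sorted TAMs from WT mice and 4 from miR-21-/- mice with an mRNA library kit. The deposited table holds CPM values (counts per 1e+06 reads, not divided by gene length) that the authors made with Partek 7.0, each raised by 1e-04. STAR, Partek 7.0 and mm10 are named in the submitters' processing notes, while the counting rule and the use of strand are not given in the sources used here. The column totals differ little, and the depth read from the low values was 20.2 to 33.4 in units of 1e+06 reads, where 1 read was worth 0.0300 to 0.0495 CPM. Up to 20 reads, 75.2% to 76.2% of values were whole reads (tolerance 0.05 reads), so whole reads were not recovered and no count test was run. The number of samples, 4 per genotype, limits the precision, and as nothing says that each sample is 1 mouse, p-values measure the spread between these samples.

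From the deposited CPM values, log2(CPM + 1) was analysed by limma 3.58.1 under R 4.3.3 (lmFit, eBayes with trend, two-sided) in the 13850 genes whose mean reached 1 per 1e+06 of the column totals, with Benjamini-Hochberg adjustment over all of them. Fold changes are on this scale, which understates those of low genes. The threshold, adjusted p of at most 0.005 and fold change over 1.5, is that of the study, and a limit of 0.05 with no fold limit was also used. All 30 genes passed the filter, so the exact test planned for genes below it was not needed. No test of the list was made. The genes and lists were chosen with earlier results of these data known. All 30 genes are named. Values of every sample are given for those past the threshold, for the highest and lowest fold change among the remaining genes of each role group, and also for Fasn. Of the other lists, genes past the threshold are named, and the other LXR and marker genes named were chosen after their values were seen. Motif and seed matches were read from RefSeq windows and the longest annotated 3′ UTR, and the seed search was added after the values were known. In data simulated for the comparison of the 2 genotypes with 200 of 13850 genes changed, 59.0% of genes with a log2 change of 0.7 and 89.0% of those with 1.5 were called. Alternatives were other pseudocounts, filters and scalings, eBayes without trend, arrayWeights, a replicate block, other limits and scores, a wider motif, and leaving out each sample in turn. Figures were drawn with matplotlib 3.10.9.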

Additional observations from a re-analysis of the deposited data

Results flagged for a closer look

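The CPM of Hmgcs1 in WT replicate 3, 63.38, stood apart from the other 3 WT samples, which had 50.7 to 52.6 CPM. Its gap to the nearest of them was 0.851 of the range of the group, above the limit for 4 samples. In all 70 groups of 4 values were examined, and chance marks about 1 in 20 such groups, so a single mark is not unusual.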

How the results depend on the processing

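Of 510 fits of the 30 genes under alternatives, 474 kept the direction and the side of the threshold, 15 lost and 10 gained the threshold, and 11 changed sign. The sign changed with the median of ratios for Ebp (0.061), Sc5d (0.021), Srebf1 (0.044), Insig2 (0.099) and Acaca (0.019), with quantile normalization for Ebp (0.041), Sc5d (0.040) and Insig2 (0.11), and for Insig2 in 3 of the 8 fits that left out a sample (0.038, 0.015 and 0.0053), where all 8 ran from -0.045 to 0.038. These 5 genes did not pass in any fit. The 986 genes past the threshold became 452 with a pseudocount of 10, 522 without a filter and 1982 without a fold limit, with 684 to 1002 when a sample was left out. The 3 genes of the pathways past it became 5 with a pseudocount of 0.1, 0 with a pseudocount of 10 (where log2 fold changes are compressed), 1 with quantile normalization and 9 without a fold limit, with 2 to 5 when a sample was left out and 5 without miR-21-/- replicate 2. The score difference of -0.33 became -0.21 with a pseudocount of 10, -0.23 with the median of ratios, -0.23 with quantile normalization and -1.24 with genes scaled to an SD of 1, with -0.37 to -0.30 when a sample was left out. Genes with the SREBP element went from 1 to 4 with the wider TCACNNCAC. Beyond the compression by the pseudocount, the cause was not tested.

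Replicate numbers give the order of the samples, and miR-21-/- replicates 2 and 3 carry 3 and 4 in their labels. Samples of the same replicate number did not deviate together (correlations 0.083, -0.11, -0.14 and 0.22). By label number, WT replicate 3 had a correlation of 0.135 with miR-21-/- replicate 2. For WT replicate 4 with miR-21-/- replicate 3 it was 0.032. The numbers were not taken to pair the samples. The replicate block used the replicate numbers and does not test pairing by label. With a replicate block, 922 genes and 2 of the 30 (Hmgcs1 and Cyp51) were past the threshold, the score difference stayed at -0.33, and Acat2, at -0.71, had a limma adjusted p of 0.00799, within its range of 0.00182 to 0.0115 over all fits. Leaving out a sample moved the genes past the threshold and lower from 586 to 367 without WT replicate 2. Depth limits the low genes most, such as Acat2, Mvk and Tm7sf2.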
